A study of Homo sapiens with 9 samples.

Results

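The 10 genes described here are components and feedback genes of the Wnt pathway: FRAT1, FRAT2, DKK1, LRP5, LRP6, AXIN1, AXIN2, GSK3B, CTNNB1 and TCF7L2. They were chosen by symbol among the 57820 GENCODE entries of a count table with 112171 features, and each symbol matched a single entry. Of the 10, 9 had enough counts to be tested, as did 22353 features in all, and AXIN2 did not. RNA came from PANC-1, a human pancreatic carcinoma cell line, kept under hypoxia for 12 h in all groups. The medium held rakicidin A at 42 nM (3 libraries), BE-43547A1 at 41 nM (3 libraries) or the solvent DMSO at 0.04% (3 libraries). Rakicidin A is a natural product of bacteria, and the doses of the compounds differed slightly. Whether the solvent was matched is not given in the labels, and no group was kept in normal oxygen. Separate cultures are not stated for the 3 libraries per group, so each p-value reflects only how these libraries vary, which may be technical variation.

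Wnt proteins bind a Frizzled receptor together with the coreceptors LRP5 or LRP6 at the cell surface. Without this signal, a destruction complex built on the scaffold Axin, with APC and the kinase GSK3, marks beta-catenin for degradation. With it, beta-catenin (CTNNB1) accumulates and acts with TCF factors such as TCF7L2 on target genes, among them the feedback inhibitors AXIN2 and DKK1. In pancreatic carcinoma the pathway is known to be active to differing degrees between tumours and lines.

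Counts on features came to 26203326 to 34870860 in the rakicidin A libraries, 39807220 to 45048999 in the BE-43547A1 libraries and 27696394 to 30596594 in the DMSO libraries. The keratins KRT8, KRT18 and KRT19 and VIM lay between 729 and 5440 CPM in all libraries, whereas EPCAM, KRT7 and CDH1 were at 4.5 to 19.9 CPM. Summed over 5 leukocyte markers the level was 2.36 to 2.87 CPM with rakicidin A, 3.6 to 4.42 CPM with BE-43547A1 and 1.68 to 2.1 CPM with DMSO, and CD3E was at 0. Summed over 5 stromal and endothelial markers it was 5.78 to 7.55, 7.33 to 9.29 and 9.81 to 13.8 CPM in the same order of groups. The 5 acinar and islet markers together stayed at or below 0.0858 CPM. The part of these markers in the results was not tested. DMSO replicate 3 stood apart from its group: the chi-square per gene between it and the other DMSO libraries was 19.3 and 17.6, against 3.07 to 8.88 for all other pairs within a group. Levels here are CPM, counts scaled to library size after TMM normalisation, which takes most genes as unchanged.

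FRAT1 fell most, both LRP coreceptors fell, and DKK1, AXIN1 and GSK3B rose with either compound, while CTNNB1 did not pass the test in any of the 3 comparisons. Of the 9 tested genes, 3 rose and 4 fell with rakicidin A (edgeR quasi-likelihood test, Benjamini-Hochberg adjusted p below 0.05 over all features). Over all features 64.7% passed in that comparison, 31.9% higher and 32.7% lower. With BE-43547A1 3 rose and 4 fell as well, and over all features 70.4% passed, 35.3% higher and 35.1% lower. The median log2 fold change of the 9 was -0.14 with rakicidin A and -0.091 with BE-43547A1, and that of all features was -0.023 and 0. Since most features passed in both comparisons, the number of Wnt genes that passed is near the background, and the results lie in the size and direction of each change. The compounds share the DMSO libraries, so their changes against DMSO are not independent.

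**Figure D1:**
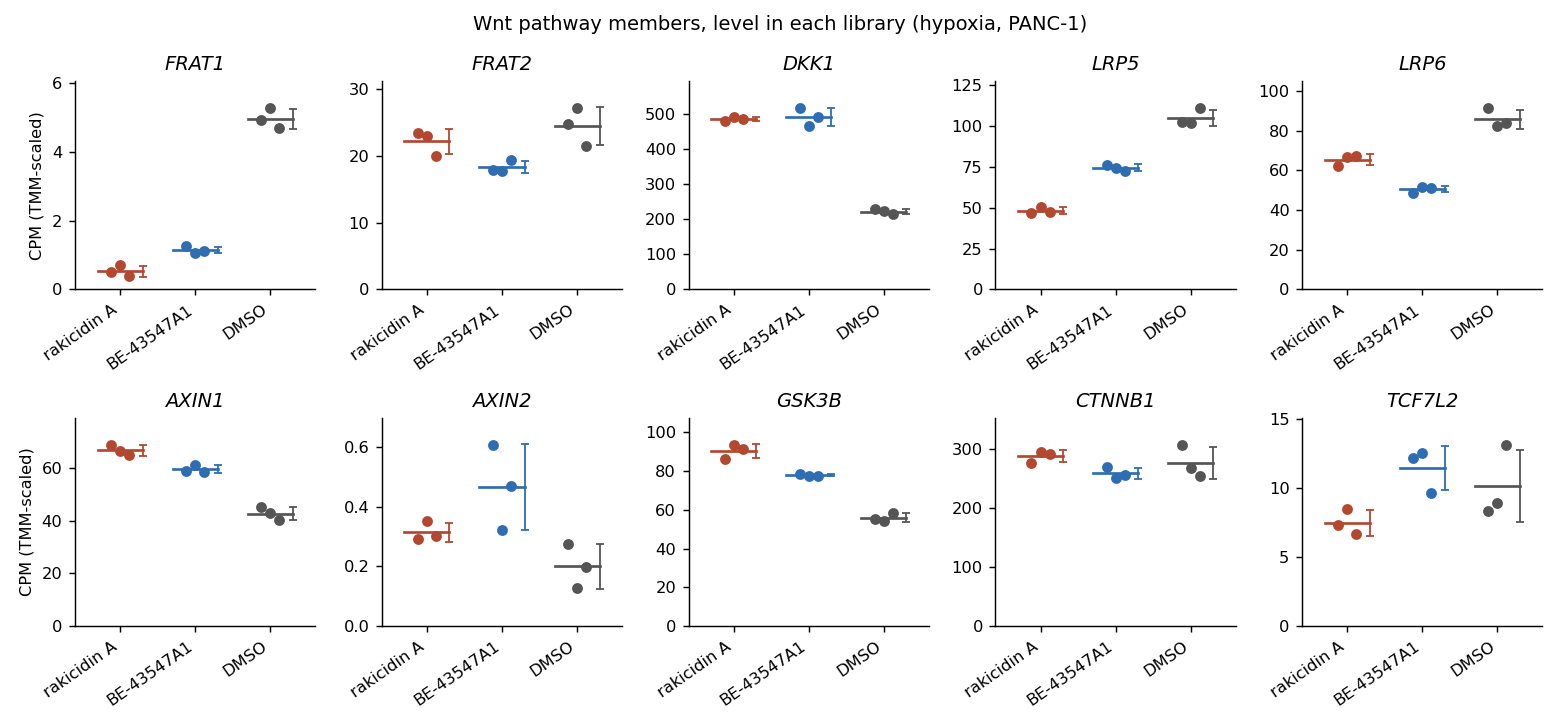
Level of each of the 10 genes in CPM (vertical axis, from 0, scaled per gene) in the rakicidin A, BE-43547A1 and DMSO libraries. Points are libraries, horizontal lines are group means and bars are SD (n = 3). FRAT1 lay at 0.386 to 0.702 CPM with rakicidin A, 1.06 to 1.26 CPM with BE-43547A1 and 4.68 to 5.27 CPM with DMSO.

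FRAT1 and FRAT2 encode GSK3-binding proteins that can take the kinase from the Axin complex and so favour beta-catenin. They lie close together on chromosome 10 in opposite orientation. FRAT1 had 0.509, 0.702 and 0.386 CPM in the rakicidin A libraries, 1.26, 1.06 and 1.12 CPM in the BE-43547A1 libraries and 4.91, 5.27 and 4.68 CPM in the DMSO libraries. The 3 groups did not overlap, and every treated library lay far below every DMSO library. FRAT1 fell by 3.17 ± 0.20 on the log2 scale with rakicidin A (± SE, edgeR adjusted p = 5.9e-11) and by 2.10 ± 0.16 with BE-43547A1 (edgeR adjusted p = 1.04e-09). These are levels 9.02-fold and 4.3-fold lower than with DMSO. The counts behind them were 45 over the rakicidin A libraries, 142 over the BE-43547A1 libraries and 493 over the DMSO libraries, so the rakicidin A value is the least precise (95% interval -3.59 to -2.76).

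FRAT2 had 23.5, 23.0 and 20.1 CPM with rakicidin A, 17.9, 17.8 and 19.5 CPM with BE-43547A1 and 24.8, 27.2 and 21.5 CPM with DMSO. The rakicidin A libraries overlapped the DMSO libraries, and the BE-43547A1 libraries lay below both. With rakicidin A FRAT2 did not pass (-0.14, 95% interval -0.32 to 0.049, edgeR adjusted p = 0.185), although it did without DMSO replicate 3 (-0.22, adjusted p = 0.0195) and by total counts alone (-0.49, adjusted p = 7.89e-05). With BE-43547A1 it fell by 0.41 ± 0.09 (edgeR adjusted p = 0.000382).

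The balance of the FRAT pair does not depend on how libraries are scaled. FRAT1 made up 2.32 ± 0.563% of the counts on FRAT1 plus FRAT2 with rakicidin A, 5.88 ± 0.59% with BE-43547A1 and 16.9 ± 0.874% with DMSO (mean ± SD, n = 3 libraries). No library of 1 group reached the share of another group. An exact permutation test of 3 against 3 libraries cannot give a two-sided p under 0.1, so no p is given for these shares. No read of 76 bases matches both transcripts exactly. The longest identical run between FRAT1-201 (2649 bases) and FRAT2-201 (2213 bases) in GENCODE v29 is 74 bases, and they share 0 windows of read length. Only exact matches were compared, so reads placed with mismatches are not covered.

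The upstream windows of this pair are printed because these paralogues changed to such different extents. Each holds the 250 bases before the annotated start, read 5′ to 3′ on the gene's strand (RefSeq, GRCh38.p14). FRAT1 lies on the plus strand with the window chr10:97319021-97319270, and FRAT2 on the minus strand with chr10:97334730-97334979. Capitals mark the 8 bases at the position of a cyclic AMP response element (CRE, TGACGTCA) in FRAT1 and the aligned bases in FRAT2.
FRAT1: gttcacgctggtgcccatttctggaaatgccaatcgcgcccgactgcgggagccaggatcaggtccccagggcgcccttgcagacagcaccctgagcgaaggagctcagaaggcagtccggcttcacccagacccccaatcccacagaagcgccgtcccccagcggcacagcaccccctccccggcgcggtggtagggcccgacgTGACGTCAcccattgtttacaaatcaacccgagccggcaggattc
FRAT2: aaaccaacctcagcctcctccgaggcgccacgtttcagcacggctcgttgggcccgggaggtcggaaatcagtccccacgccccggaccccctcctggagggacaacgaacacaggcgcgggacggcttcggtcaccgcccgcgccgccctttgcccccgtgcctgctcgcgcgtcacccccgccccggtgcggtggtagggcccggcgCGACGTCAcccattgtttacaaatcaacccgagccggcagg

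The windows share an identical run of 40 bases, which begins 44 bases before the FRAT1 start and 40 bases before the FRAT2 start. At that alignment 58 of 61 bases near the start are identical, against 126 of 246 over the whole window (51.2%). The octamer differs by the substitution T1C, counted from 1 at its 5′ end with the FRAT1 base first. Of 35116 RefSeq windows of this length, 1.65% hold the CRE letters. Further motifs searched on both strands were ATCAAAG (TCF/LEF, in 2.26% of windows), TGANTCA (AP-1, 6.57%) and TGATGNAA (CARE, the amino acid response element, 3.14%). Windows were matched for 8 of the 10 genes, all except AXIN2 and LRP6, and TCF7L2 has 3. FRAT1 held the CRE letters, and no other of these windows held a match to the 4 motifs. A match to letters is a description and not a binding site.

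DKK1 encodes a secreted antagonist that binds LRP5 and LRP6. It rose to 481, 494 and 487 CPM with rakicidin A and to 518, 466 and 492 CPM with BE-43547A1, against 229, 224 and 214.5 CPM with DMSO. All treated libraries lay above all DMSO libraries, and the compounds overlapped. The log2 fold change was 1.13 ± 0.06 with rakicidin A (edgeR adjusted p = 1.86e-12) and 1.14 ± 0.06 with BE-43547A1 (edgeR adjusted p = 1.61e-12). An antisense gene, PRKG1-AS1, shares 9.61% of the DKK1 exon length in GENCODE v29. Whether counting used strand is not given in the sources used here, but this gene itself had 22 to 82 counts per library.

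The coreceptors fell with both compounds, in opposite order. LRP5 had 46.8, 50.4 and 47.4 CPM with rakicidin A, 76.3, 74.4 and 72.1 CPM with BE-43547A1 and 102, 102 and 111 CPM with DMSO. LRP6 had 62.1, 66.9 and 67.2 CPM with rakicidin A, 48.8, 51.6 and 51.1 CPM with BE-43547A1 and 91.3, 82.5 and 83.6 CPM with DMSO. For either gene the 3 groups did not overlap: LRP5 was lowest with rakicidin A and LRP6 lowest with BE-43547A1. LRP5 fell by 1.12 ± 0.06 with rakicidin A (edgeR adjusted p = 4.6e-12) and by 0.50 ± 0.06 with BE-43547A1 (edgeR adjusted p = 2.83e-07). LRP6 fell by 0.39 ± 0.06 with rakicidin A (edgeR adjusted p = 1.14e-05) and by 0.76 ± 0.06 with BE-43547A1 (edgeR adjusted p = 1.43e-09). Of the counts on the pair, LRP5 held 42.4 ± 0.923% with rakicidin A, 59.5 ± 1.29% with BE-43547A1 and 55 ± 2.09% with DMSO (mean ± SD, n = 3 libraries), with no overlap between groups.

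**Figure D2:**
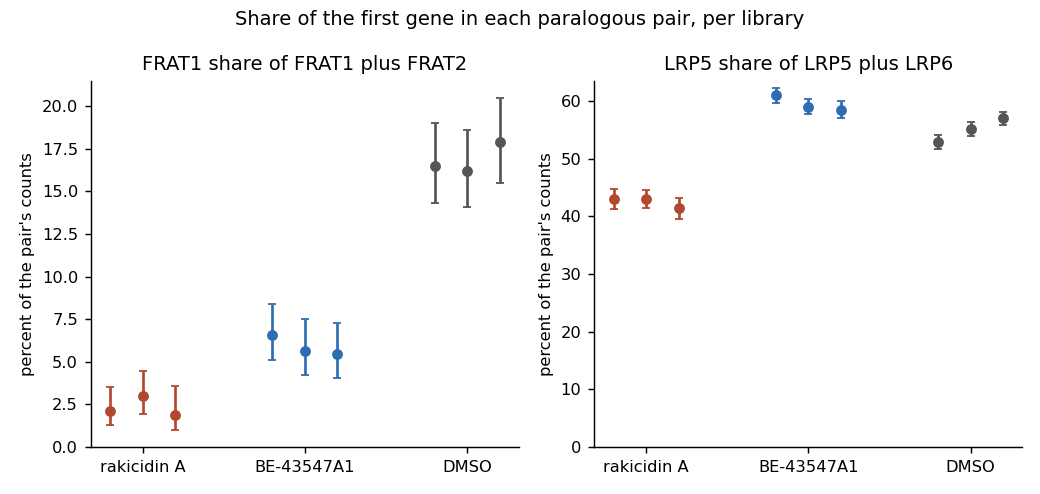
Share of FRAT1 in the counts on FRAT1 plus FRAT2 (left) and of LRP5 in the counts on LRP5 plus LRP6 (right), in percent from 0, per library. Bars are 95% Wilson intervals for counting error only. Mean FRAT1 shares were 2.32% with rakicidin A, 5.88% with BE-43547A1 and 16.9% with DMSO, and the LRP5 share was lowest with rakicidin A.

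AXIN1 and GSK3B rose with both compounds. AXIN1, the scaffold of the destruction complex, had 68.6, 66.2 and 64.8 CPM with rakicidin A and 58.9, 61.2 and 58.5 CPM with BE-43547A1, against 44.9, 42.8 and 40.1 CPM with DMSO. GSK3B, the kinase that phosphorylates beta-catenin, had 86.1, 93.5 and 91.4 CPM with rakicidin A and 78.4, 77.7 and 77.5 CPM with BE-43547A1, against 55.1, 54.3 and 58.5 CPM with DMSO. For both genes all treated libraries lay above all DMSO libraries. AXIN1 rose by 0.64 ± 0.06 with rakicidin A (edgeR adjusted p = 1.89e-08) and 0.48 ± 0.06 with BE-43547A1 (edgeR adjusted p = 7.02e-07). GSK3B rose by 0.69 ± 0.06 with rakicidin A (edgeR adjusted p = 2.96e-09) and 0.48 ± 0.06 with BE-43547A1 (edgeR adjusted p = 3.97e-07).

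AXIN2, the homologue of AXIN1 that beta-catenin and TCF induce, was close to the limit of detection. It had 8, 11 and 7 counts with rakicidin A, 27, 13 and 18 counts with BE-43547A1 and 9, 4 and 7 counts with DMSO. On the CPM scale these were 0.291, 0.351 and 0.300 with rakicidin A, 0.606, 0.321 and 0.470 with BE-43547A1 and 0.275, 0.126 and 0.199 with DMSO, and the groups of both compounds lay just above that of DMSO. Scaled by total counts alone, both compounds overlapped DMSO. There DMSO replicate 1 had 0.3143 CPM, above rakicidin A replicates 1 and 3 (0.2611 and 0.2671) and BE-43547A1 replicate 2 (0.3103). In a fit without a filter on low counts it did not pass with rakicidin A (0.64 ± 0.48, edgeR adjusted p = 0.46). With BE-43547A1 it was higher by 1.23 ± 0.41 (edgeR adjusted p = 0.0127), a call lost in DESeq2 (adjusted p = 0.0658), by total counts alone (0.0658), without BE-43547A1 replicate 1 (0.130) and without DMSO replicate 2 (0.0913). A gene on the same strand, AC004805.1, shares 25.2% of the AXIN2 exon length in GENCODE v29 and had 0 counts in every library. Whether reads from the shared part were left uncounted, which would lower the AXIN2 counts, was not tested.

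Of the nuclear effectors, CTNNB1 did not pass against DMSO and the TCF7L2 calls against DMSO changed with single libraries. CTNNB1, which encodes beta-catenin, had 276, 295 and 292 CPM with rakicidin A, 269, 251 and 256 CPM with BE-43547A1 and 307, 268 and 253 CPM with DMSO. Either compound overlapped DMSO, and DMSO replicate 1 was the highest of all libraries. The difference from DMSO was 0.060 with rakicidin A (95% interval -0.077 to 0.197, edgeR adjusted p = 0.438) and -0.091 with BE-43547A1 (-0.23 to 0.046, edgeR adjusted p = 0.22). The rakicidin A difference passed without DMSO replicate 1 (0.14, edgeR adjusted p = 0.0437), and the BE-43547A1 difference passed without DMSO replicate 3 (-0.16, edgeR adjusted p = 0.0183). Scaled by total counts alone the rakicidin A value turned to -0.30 (edgeR adjusted p = 0.000519), and the BE-43547A1 value was -0.33 (edgeR adjusted p = 0.00019). With TMM scaling the data thus bound the change of this mRNA more than they give it a direction. The values by total counts alone lie outside these intervals, so the bound rests on the scaling. The data do not measure beta-catenin protein.

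TCF7L2, the TCF factor among the 10 genes, had 7.30, 8.49 and 6.65 CPM with rakicidin A, 12.2, 12.5 and 9.63 CPM with BE-43547A1 and 8.33, 8.95 and 13.1 CPM with DMSO. DMSO replicate 3 lay above the other DMSO libraries and above all treated libraries. TCF7L2 fell by 0.44 ± 0.15 with rakicidin A (edgeR adjusted p = 0.0193), but not without DMSO replicate 3 (-0.20, edgeR adjusted p = 0.178). The call was also lost without the first rakicidin A library (-0.40, edgeR adjusted p = 0.0684) and without the third (-0.35, edgeR adjusted p = 0.0952). With BE-43547A1 it did not pass (0.17, 95% interval -0.13 to 0.47, edgeR adjusted p = 0.292), but rose by 0.40 without DMSO replicate 3 (edgeR adjusted p = 0.00516). By total counts alone its direction turned (-0.065, edgeR adjusted p = 0.703).

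**Figure D3:**
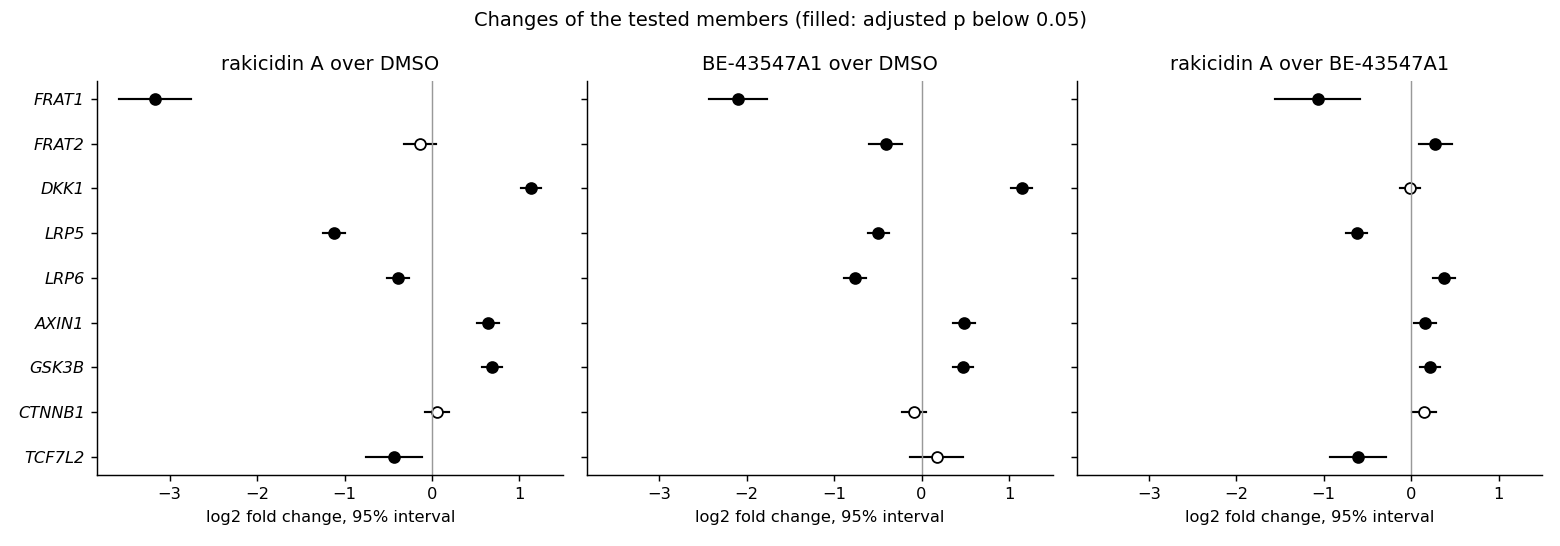
Log2 fold change (horizontal axis) with 95% interval of the 9 tested genes for rakicidin A over DMSO, BE-43547A1 over DMSO and rakicidin A over BE-43547A1. Filled points passed at an adjusted p below 0.05. FRAT1 lies farthest left with values of -3.17, -2.10 and -1.07, and DKK1 lies at 1.13, 1.14 and -0.014.

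Per kilobase of exon, with lengths from GENCODE v29, which may differ from the gene models counted, levels between genes can be set side by side. DKK1 stood at 221 CPM per kb with rakicidin A, 223 with BE-43547A1 and 101 with DMSO. CTNNB1 followed at 24.1, 21.7 and 23.1 CPM per kb in the same order of groups. With DMSO the next were LRP5 (17 CPM per kb), FRAT2 (11.1), LRP6 (8.3), GSK3B (6.87) and AXIN1 (5.69). With rakicidin A the order of these 5 was GSK3B (11.1), FRAT2 (10), AXIN1 (8.88), LRP5 (7.82) and LRP6 (6.33). The SD of GSK3B and FRAT2 there was 0.47 and 0.84, and their ranges of mean ± SD overlapped. With BE-43547A1 it was LRP5 (12.1), GSK3B (9.55), FRAT2 (8.31), AXIN1 (7.95) and LRP6 (4.89), where FRAT2 and AXIN1 lay within 1 SD. FRAT1 had 0.201, 0.434 and 1.87 CPM per kb, and TCF7L2 had 1.11, 1.69 and 1.5. With DMSO FRAT1 exceeded TCF7L2 by less than the TCF7L2 SD of 0.387. AXIN2 was lowest in every group, at 0.0601, 0.0890 and 0.0383 CPM per kb. Its exon length includes the part shared with AC004805.1, and whether this lowered its level was not tested. In bulk RNA fewer expressing cells and less RNA per cell cannot be told apart.

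The direct comparison asked where the compounds differ, at 42 nM rakicidin A and 41 nM BE-43547A1. Of the 9 tested genes 4 were higher and 3 lower with rakicidin A, and over all features 46.6% passed, 24.1% higher and 22.5% lower. When scaled by total counts alone, 1 of the 9 was higher and 4 were lower. The log2 difference of FRAT1, rakicidin A over BE-43547A1, was -1.07 ± 0.23 (edgeR adjusted p = 0.000959), LRP5 differed by -0.62 ± 0.06 (edgeR adjusted p = 9.38e-08) and TCF7L2 by -0.61 ± 0.15 (edgeR adjusted p = 0.00284). LRP6 was higher with rakicidin A by 0.37 ± 0.06 (edgeR adjusted p = 5.15e-05) and GSK3B by 0.21 ± 0.06 (edgeR adjusted p = 0.00355). FRAT2 (0.28 ± 0.09, edgeR adjusted p = 0.0166) and AXIN1 (0.16 ± 0.06, edgeR adjusted p = 0.0305) were higher too. These last 3 differences were not called by total counts alone (adjusted p = 0.166, 0.159 and 0.588 for GSK3B, FRAT2 and AXIN1). The FRAT2 call was also lost without replicate 1 or 2 of either compound (adjusted p = 0.0606 to 0.0698), and the AXIN1 call without replicate 1 or 2 of rakicidin A or 1 or 3 of BE-43547A1 (0.0588 to 0.102) and with no filter on low counts (0.238). DKK1 did not differ detectably (-0.014, 95% interval -0.13 to 0.10, edgeR adjusted p = 0.856), though by total counts alone it passed (-0.13, edgeR adjusted p = 0.0493). CTNNB1 did not pass (0.15, 95% interval 0.014 to 0.287, edgeR adjusted p = 0.0664), but did without DMSO replicate 1 (0.16, edgeR adjusted p = 0.0199) or 3 (0.16, edgeR adjusted p = 0.0136).

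For the 3 genes with the largest changes, the 5 genes of most similar pattern were sought by the root mean square difference of log2 CPM over the 9 libraries, each gene centred on its DMSO mean. For FRAT1 they were PAQR8 (0.164), PROCA1 (0.235), ANXA2R (0.283), TSHZ1 (0.297) and SOX21 (0.309). For DKK1 they were ARRDC2 (0.04), SMNDC1 (0.067), GNA13 (0.067), CDKN2AIP (0.068) and PQLC2 (0.07). For LRP5 they were RIPK4 (0.06), PDK2 (0.077), QDPR (0.077), FAM210B (0.081) and MLLT11 (0.092). The FRAT1 distances are wider than those of DKK1 and LRP5, and FRAT1 and its nearest genes have low counts. None of these 15 genes is on the Wnt list that follows.

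Other genes of the pathway came from a list of 162, of which 120 could be tested. With rakicidin A 46 rose and 41 fell (72.5% passed, against 64.7% of all features), with a median log2 fold change of -0.057. With BE-43547A1 49 rose and 41 fell (75.0%, against 70.4%), with a median of 0.038. By total counts alone the split was 34 higher and 70 lower with rakicidin A and 37 higher and 58 lower with BE-43547A1, as this scaling moved the median of all features to -0.38 and -0.24. In the direct comparison 36 were higher and 31 lower with rakicidin A (27 and 42 by total counts alone), a median of -0.03 against -0.022 for all features.

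**Figure D4:**
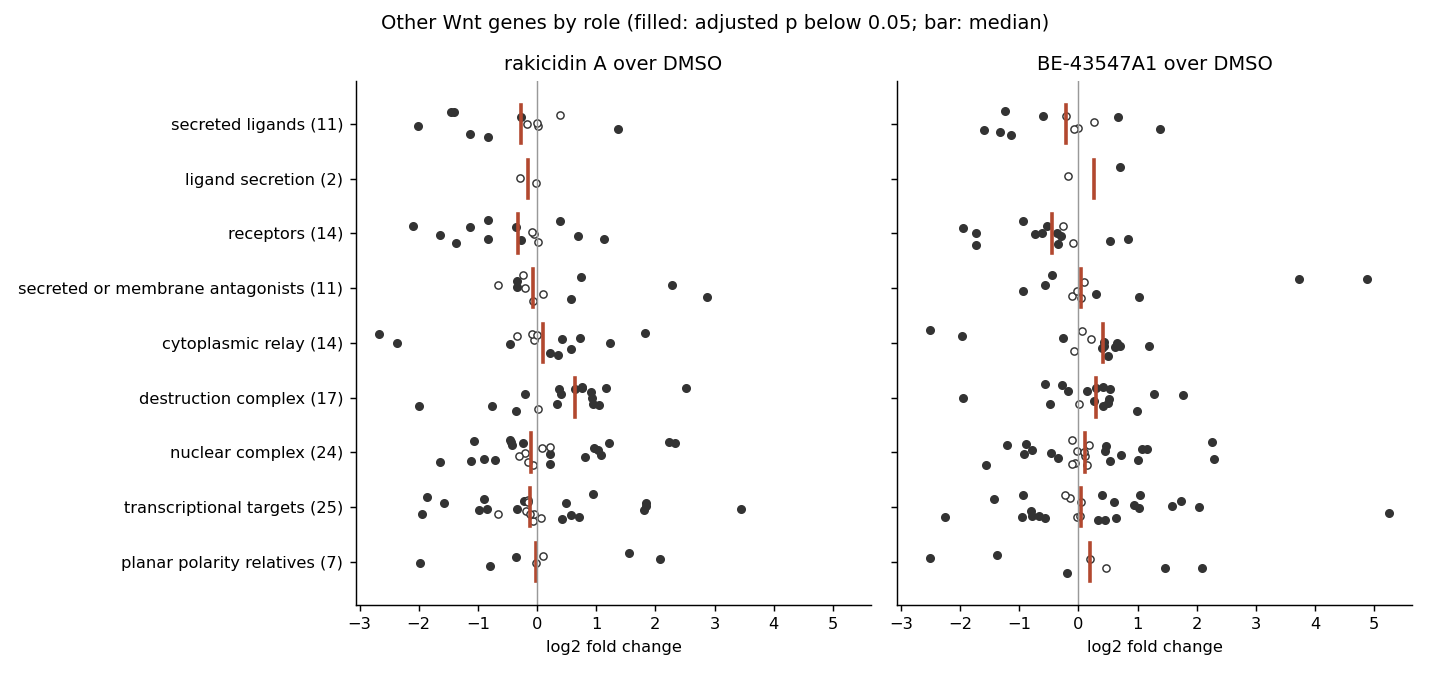
Log2 fold change (horizontal axis) of the 120 other Wnt genes by role, for rakicidin A over DMSO (left) and BE-43547A1 over DMSO (right). Points are genes, spread vertically for legibility, filled where the adjusted p was below 0.05, and bars are medians. The number tested per role stands in brackets, and 7 genes on the list are counted under more than 1 role. The destruction complex has medians of 0.65 and 0.29 and the receptors medians of -0.32 and -0.44.

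Receptors mostly fell: 3 rose and 8 fell of 14 with rakicidin A, and 2 rose and 10 fell with BE-43547A1. Over all features 31.9% were higher and 32.7% lower with rakicidin A, and 35.3% and 35.1% with BE-43547A1. These shares are the background for the counts of the roles that follow as well. Scaled by total counts, 2 rose and 11 fell with rakicidin A and 2 rose and 12 fell with BE-43547A1. FZD1, a Frizzled receptor, averaged 1.06 ± 0.207 CPM with rakicidin A, 1.17 ± 0.189 CPM with BE-43547A1 and 4.59 ± 0.162 CPM with DMSO (SD, n = 3 each). FZD4 fell by 1.36 ± 0.10 and 0.73 ± 0.09 on the log2 scale with rakicidin A and BE-43547A1. ROR2, a receptor of WNT5A, fell by 1.14 ± 0.13 and 0.93 ± 0.12. FZD5 (0.69 and 0.54) and FZD9 (1.13 and 0.83) rose with both, and ROR1 rose with rakicidin A (0.39), a call lost by total counts alone (0.037, edgeR adjusted p = 0.615).

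Of 11 secreted ligands 1 rose and 6 fell with rakicidin A, and 2 rose and 5 fell with BE-43547A1. The splits by total counts alone were 1 and 9 with rakicidin A and 2 and 7 with BE-43547A1. WNT2B rose to 2.97 ± 0.187 CPM with rakicidin A and 3.01 ± 0.174 CPM with BE-43547A1, against 1.16 ± 0.283 CPM with DMSO. WNT9A went opposite ways, 18 ± 0.880 CPM with rakicidin A and 34.5 ± 0.553 CPM with BE-43547A1, against 21.6 ± 3.15 CPM with DMSO, and the compounds differed by -0.94 (edgeR adjusted p = 8.87e-08). WNT5A (-2.01 and -1.25), WNT10B (-1.41 and -1.14), WNT11 (-1.14 and -1.32) and WNT16 (-1.46 and -1.60) fell with both from low levels. WNT5A had 0.191 ± 0.0575 CPM with rakicidin A, 0.33 ± 0.119 CPM with BE-43547A1 and 0.791 ± 0.03 CPM with DMSO. WNT10B had 0.367 ± 0.135, 0.46 ± 0.168 and 1.01 ± 0.268 CPM in the same order. WNT5A was thus near the floor with both compounds, and its DMSO libraries helped it pass the low-count filter. Its falls, counted above, were favoured by that filter. WNT7B fell with rakicidin A (-0.83) and WNT5B with BE-43547A1 (-0.59). Of the genes of ligand secretion, WLS, the carrier of Wnt proteins, rose with BE-43547A1 (0.70 ± 0.09), and PORCN passed with neither. By total counts alone PORCN fell with rakicidin A (-0.65, edgeR adjusted p = 0.00127) and with BE-43547A1 (-0.42, edgeR adjusted p = 0.0159). There WLS fell with rakicidin A (-0.38, edgeR adjusted p = 0.00215) and still rose with BE-43547A1 (0.46, edgeR adjusted p = 0.000196).

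Among 11 other antagonists 4 rose and 2 fell with rakicidin A, and 4 rose and 3 fell with BE-43547A1. The splits by total counts alone were 3 and 6 with rakicidin A and 3 and 5 with BE-43547A1. NOTUM, an enzyme that inactivates Wnt proteins, rose by 0.57 ± 0.10 and 1.02 ± 0.10, but by total counts alone it did not pass with rakicidin A (0.21, edgeR adjusted p = 0.0819). SFRP4, a secreted Wnt-binding protein, rose by 2.28 ± 0.54 and 3.73 ± 0.42 from 0.0712 ± 0.0474 CPM with DMSO. FRZB was higher than with DMSO as well, at 0.161 ± 0.144 CPM with rakicidin A and 0.695 ± 0.159 CPM with BE-43547A1, against 0.02 ± 0.0174 CPM with DMSO. Its log2 fold change with rakicidin A was 2.87 ± 0.93. FRZB and SFRP4 lay near the floor with DMSO and passed the low-count filter only through treated libraries, where they were high. Their calls, counted among the rises above, were thus favoured by the filter. SHISA2 rose with rakicidin A (0.75) and DKK3 with BE-43547A1 (0.30), the DKK3 call being lost by total counts alone (0.065, edgeR adjusted p = 0.291). ZNRF3, a ligase that removes Frizzled receptors, fell with both (-0.34 and -0.56). SFRP1 fell with rakicidin A (-0.34), and TPBG (-0.44) and the ligase RNF43 (-0.93) with BE-43547A1.

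In the cytoplasmic relay 7 rose and 3 fell of 14 with rakicidin A, and 8 rose and 3 fell with BE-43547A1. Scaled by total counts, 4 rose and 7 fell with rakicidin A and 7 rose and 5 fell with BE-43547A1. CXXC5, which binds Dishevelled, fell to 11.5 ± 1.42 CPM with rakicidin A and 15.2 ± 0.875 CPM with BE-43547A1, against 59.2 ± 0.872 CPM with DMSO. CXXC4 (-2.67 ± 0.39 and -2.50 ± 0.34) and CAPRIN2 (-0.46 and -0.26) were the other falls. CXXC4 had 0.159 ± 0.0131 CPM with rakicidin A, 0.174 ± 0.106 CPM with BE-43547A1 and 1.03 ± 0.152 CPM with DMSO. It was thus near the floor with both compounds and passed the low-count filter through the DMSO libraries. The casein kinase gene CSNK1G1 rose by 1.83 ± 0.06 and 1.19 ± 0.06, and DACT2 by 1.24 ± 0.08 and 0.62 ± 0.08.

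The other 17 genes of the destruction complex and its turnover included 12 that rose and 4 that fell with rakicidin A, and 11 that rose and 5 that fell with BE-43547A1. Scaled by total counts, 9 rose and 5 fell with rakicidin A and 7 rose and 5 fell with BE-43547A1. The ubiquitin ligase gene SIAH2 averaged 168 ± 7.35 CPM with rakicidin A and 98.9 ± 1.22 CPM with BE-43547A1, against 29.1 ± 1.18 CPM with DMSO. TNKS2, a tankyrase that marks Axin for degradation, rose by 1.04 ± 0.06 and 1.29 ± 0.06. AMER1, which binds APC, fell to 2.68 ± 0.438 CPM with rakicidin A and 2.79 ± 0.130 CPM with BE-43547A1, against 10.7 ± 0.973 CPM with DMSO. PPP2R5A (-0.35 and -0.56) and RNF146 (-0.21 and -0.48) fell with both and APC2 with rakicidin A (-0.76). APC rose with rakicidin A (0.37) and fell with BE-43547A1 (-0.27), and BTRC fell with BE-43547A1 (-0.17). The rise of APC with rakicidin A was 0.009 by total counts alone.

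Of 24 genes of the nuclear complex 9 rose and 9 fell with rakicidin A, and 9 rose and 7 fell with BE-43547A1. The splits by total counts alone were 7 and 15 with rakicidin A and 6 and 11 with BE-43547A1. HBP1, a repressor of TCF targets, rose to 136 ± 3.36 CPM with rakicidin A and 138 ± 6.05 CPM with BE-43547A1, against 28.9 ± 2.65 CPM with DMSO. The corepressor TLE3 fell by 1.12 ± 0.07 and 1.56 ± 0.07. Among partners of beta-catenin BCL9 (-1.65 ± 0.19 and -0.91 ± 0.17) and PYGO2 (-0.71 ± 0.09 and -1.21 ± 0.09) fell. The coactivator genes EP300 and CREBBP, chosen after their values were seen, rose with both compounds. EP300 averaged 133 ± 11.5 CPM with rakicidin A and 127 ± 5.07 CPM with BE-43547A1, against 57 ± 11.3 CPM with DMSO. CREBBP averaged 87.5 ± 4.34 CPM with rakicidin A and 86 ± 4.30 CPM with BE-43547A1, against 42.9 ± 10.3 CPM with DMSO.

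Of 25 genes known as targets of beta-catenin and TCF in some tissue, 9 rose and 8 fell with rakicidin A, and 12 rose and 8 fell with BE-43547A1. Scaled by total counts, 6 rose and 15 fell with rakicidin A and 8 rose and 12 fell with BE-43547A1. FGF18, a growth factor, averaged 5.14 ± 1.64 CPM with rakicidin A and 18.1 ± 2.28 CPM with BE-43547A1, against 0.468 ± 0.0821 CPM with DMSO. MYC, a transcription factor of growth, rose by 1.84 ± 0.07 and 1.59 ± 0.07, and CYR61, a matricellular protein gene, by 1.80 ± 0.07 and 2.04 ± 0.07. SOX4 (-1.94 ± 0.08 and -1.42 ± 0.08) and ID2 (-1.85 ± 0.09 and -0.95 ± 0.08) fell. The targets thus went both ways, as did the 120 genes together. Many of these genes have other known inducers, and beta-catenin activity was not measured.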

How the data were processed

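RNA-seq counts were analysed for 9 PANC-1 libraries in 3 groups of 3. The authors deposited a table of raw counts of reads or fragments per feature. TopHat2, HTSeq and the builds GRCh37 and hg19 are named, per the submitters' processing notes, while strand and settings were not stated. The 5 summary entries that name no gene held 39 to 45.4% of all entries per library and were set aside. This share was 39 to 39.8% with rakicidin A, 42.7 to 43% with BE-43547A1 and 44.4 to 45.4% with DMSO. The TMM factors also separated the groups, at 0.89 to 0.899, 0.963 to 0.989 and 1.145 to 1.152 in the same order. The part of these differences in the results was not tested. In R 4.3.3, edgeR 4.0.16 was fitted to all 9 libraries (filterByExpr, TMM factors, 1 mean per group, 6 residual degrees of freedom), with Benjamini-Hochberg adjustment over 22353 features and a threshold of 0.05. Standard errors were derived from each log2 fold change and its F statistic. Fits were tested on simulated counts in which only a small part of the genes changed. That test does not check the scaling for data where most features passed. Precision is set by the depth, and count intervals cover counting error only.

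The members and lists were chosen with earlier results of these data known. Named list genes were the 10 largest rises and falls per compound with a mean of at least 2 CPM, and members of a role where 5 or fewer went 1 way. Alternatives were RLE factors, total counts, no filter, DESeq2 1.42.0, limma-voom (limma 3.58.1), the 6 libraries of a comparison alone, a replicate block, each library left out, and a log2 fold change of at least 1. Same-numbered libraries of different groups deviated from their group means with correlations of -0.057 to 0.12, and other-numbered ones with -0.097 to 0.092. Whether the numbers pair the libraries cannot be told from this. Figures were drawn with matplotlib 3.10.9.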

Additional observations from a re-analysis of the deposited data

How the results depend on the processing

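The tally here leaves out the alternative of a log2 fold change of at least 1. Under the others, 439 values of the 10 genes kept their direction and their side of the threshold, 11 gained a call, 19 lost it and 5 turned direction. Values that turned are counted by direction alone. Among them CTNNB1 with rakicidin A by total counts alone also gained a call, and the 11 do not include it. Under these same alternatives FRAT1, LRP5 and LRP6 kept direction and call in all comparisons, as did DKK1, AXIN1 and GSK3B against DMSO. Total counts alone gave -0.49 for FRAT2 and -0.30 for CTNNB1 with rakicidin A, both called. For BE-43547A1 it gave -0.33 for CTNNB1 (called), -0.065 for TCF7L2 and 0.98 for AXIN2 (neither called), and for AXIN2 DESeq2 gave 1.22 (not called). Between the compounds it gave -0.13 for DKK1 (called) and 0.16, 0.041 and 0.095 for FRAT2, AXIN1 and GSK3B (not called). There DESeq2 gave 0.009 for DKK1 and 0.17 for CTNNB1 (the second called), the 6 libraries gave 0.15 for CTNNB1 (called), and no filter gave 0.14 for AXIN1 (not called). The cause was not tested.

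With each library left out, values with rakicidin A ranged from -0.22 to -0.053 for FRAT2, 0.001 to 0.14 for CTNNB1 and -0.56 to -0.20 for TCF7L2. With BE-43547A1 they ranged from 0.97 to 1.51 for AXIN2, -0.16 to -0.014 for CTNNB1 and 0.042 to 0.40 for TCF7L2. Between the compounds they ranged from 0.24 to 0.35 for FRAT2, -0.05 to 0.016 for DKK1, 0.14 to 0.19 for AXIN1 and 0.13 to 0.19 for CTNNB1. Called genes among the 9 were 6 to 8, 7 to 9 and 5 to 8 in the 3 comparisons.

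A log2 fold change of at least 1 left 6211, 7075 and 2167 features, 3, 2 and 1 of the 9 genes and 38, 35 and 4 list genes, since this asks more of a call. Total counts gave 4480 higher and 11380 lower features with rakicidin A (7141 and 7314 with TMM), 5951 and 10450 with BE-43547A1 (7898 and 7840), and 3933 and 6862 between the compounds (5387 and 5036). The replicate block called 14359, 15670 and 10347 features and 7 of the 9 genes in each comparison, and changed no call of the 10 genes. Depth limits AXIN2 and FRAT1 most.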

Other observations

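Genes of planar cell polarity, a branch of Wnt signalling that does not use beta-catenin, were also measured. Of 7 such genes 2 rose and 3 fell with either compound. VANGL1, a membrane protein of this branch, averaged 10.8 ± 0.590 CPM with rakicidin A and 7.58 ± 0.750 CPM with BE-43547A1, against 43 ± 1.99 CPM with DMSO (SD, n = 3 each; log2 fold change -1.98 ± 0.08 and -2.50 ± 0.08). PRICKLE1 fell with both (-0.80 and -1.38), CELSR1 with rakicidin A (-0.35) and INVS with BE-43547A1 (-0.20). CELSR3, an atypical cadherin, rose to 35.9 ± 2.43 CPM with rakicidin A and 36.1 ± 1.02 CPM with BE-43547A1, against 8.5 ± 0.759 CPM with DMSO. DAAM1, a formin that binds Dishevelled, rose by 1.55 ± 0.06 and 1.46 ± 0.06. These directions were the same by total counts alone.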
